A study of Rattus norvegicus with 12 samples.

Results

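The HCN genes encode the pore-forming subunits of the hyperpolarization-activated, cyclic nucleotide-gated channels. These channels open when a neuron is hyperpolarized, pass an inward cation current and are opened further when cyclic AMP binds their intracellular domain. In thalamic relay neurons this current works together with T-type calcium channels in rhythmic burst firing, and HCN2 and HCN4 are the subunits best known for it there. Hcn2, Hcn3 and Hcn4 were followed here, 3 of the 34525 genes in the deposited table, found by gene name with 1 row each. Another family gene in the table is not analysed here.

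Total RNA of 12 rat samples was sequenced, 3 in each of 4 groups. The groups were thalamus of rats labelled CFA, thalamus of rats labelled 0.9% NS (called saline below), rostral ventral medulla (RVM) labelled CFA and RVM labelled saline. The thalamus relays sensory signals to the cortex, and the RVM is a brainstem region that sends descending pain-modulating projections to the spinal cord and trigeminal nuclei. The series is titled as one on chronic orofacial pain, and its labels give no strain, age, sex, dose, site or time for either treatment. Nothing in them tells whether 3 samples of a group are 3 animals. The p-values therefore rest on the spread between samples, which may be technical.

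Libraries held 14944794 to 19243108 recovered reads. Hindbrain markers set the regions apart. All 8 together summed to 131 to 153 FPKM in RVM CFA and 148 to 176 FPKM in RVM saline. In any thalamus library they summed to at most 1.24 FPKM. FPKM is a fragment count scaled to gene length and to sequencing depth. The extraction text speaks of retinas, and 7 photoreceptor genes summed to at most 1.78 FPKM in any library. The thalamus libraries were uneven in makeup. The summed level of 8 thalamic neuron markers was 204, 654 and 550.03 FPKM in thalamus CFA 1, 2 and 3 and 499, 1100 and 879 FPKM in thalamus saline 1, 2 and 3. It was 191 to 222 FPKM in RVM CFA and 189 to 236 FPKM in RVM saline. Thalamus CFA 1 thus lay within the RVM range by this sum. By the mean log2 level of the same markers it lay above, at 4.09 against 3.21 to 3.35 in RVM. Choroid plexus markers summed to 10196 and 2443 FPKM in thalamus CFA 1 and 2 and to at most 26.6 FPKM in the other 10 libraries. The hypothalamic peptide gene Oxt was at 11.5 FPKM in thalamus CFA 2 and 80.4 FPKM in thalamus saline 2, and at most 0.403 FPKM elsewhere. In such bulk samples, fewer cells of a type and less RNA per cell cannot be told apart.

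Hcn2 was the most abundant of the 3 genes in every library. It encodes a subunit found widely in brain, with an intermediate opening speed. In the table it is ENSRNOG00000008831, on the minus strand of chromosome 7, 12851739 to 12874215. Hcn2 was at 42.4, 65.4 and 99.6 FPKM in thalamus CFA 1, 2 and 3 and at 65.7, 105 and 114 FPKM in thalamus saline 1, 2 and 3. In RVM it was at 158, 153 and 162 FPKM in CFA 1, 2 and 3 and at 146, 118 and 122 FPKM in saline 1, 2 and 3. Every RVM library was thus above every thalamus library, and library 1 was the lowest of each thalamus group. The level exceeded that of 94.8% to 98.6% of all listed genes.

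Hcn4 encodes the slowly opening, strongly cyclic AMP-sensitive subunit that is also the main one of the cardiac sinoatrial node. It is listed as ENSRNOG00000009450, on the plus strand of chromosome 8, 63600663 to 63639654. Hcn4 was at 3.29, 9.86 and 8.61 FPKM in thalamus CFA 1, 2 and 3 and at 9.87, 18.4 and 16.4 FPKM in thalamus saline 1, 2 and 3. In RVM its level was 1.99, 2.06 and 2.02 FPKM in CFA 1, 2 and 3 and 1.66, 2.12 and 1.87 FPKM in saline 1, 2 and 3. The highest thalamus CFA library stood just under the lowest thalamus saline library, and every thalamus library was above every RVM library.

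Hcn3, a subunit that responds little to cyclic AMP, was the lowest of the 3 in the thalamus libraries and close to Hcn4 in RVM. It is listed as ENSRNOG00000020444, on the minus strand of chromosome 2, 188454853 to 188471988. Hcn3 was at 2.16, 3.03 and 3.45 FPKM in thalamus CFA 1, 2 and 3 and at 3.06, 3.54 and 3.47 FPKM in thalamus saline 1, 2 and 3. In RVM it was at 1.25, 1.72 and 1.40 FPKM in CFA 1, 2 and 3 and at 1.76, 1.63 and 1.85 FPKM in saline 1, 2 and 3. The regions did not overlap, while CFA and saline overlapped in both. These coordinates are those of whole genes as listed in the table, without a stated genome build. Each gene has 1 value per library, and which of its parts were counted is not stated.

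The depth behind these levels differed between the genes. Hcn2 rested on 2049 to 7220 recovered reads per library, which is a counting error of 1.18% to 2.21%. Hcn3 rested on 144 to 390 reads, an error of 5.06% to 8.33%, and Hcn4 on 148 to 1628 reads, an error of 2.48% to 8.22%. The spread between the libraries of a group exceeded that counting error for Hcn2 in all 4 groups, with a coefficient of variation of 41.6% in thalamus CFA and 27.1% in thalamus saline, against 2.97% in RVM CFA and 11.6% in RVM saline. For Hcn4 it was 48.1% in thalamus CFA and 29.9% in thalamus saline, and it was 1.77% in RVM CFA, below the counting error, and 12.3% in RVM saline.

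**Figure D1:**
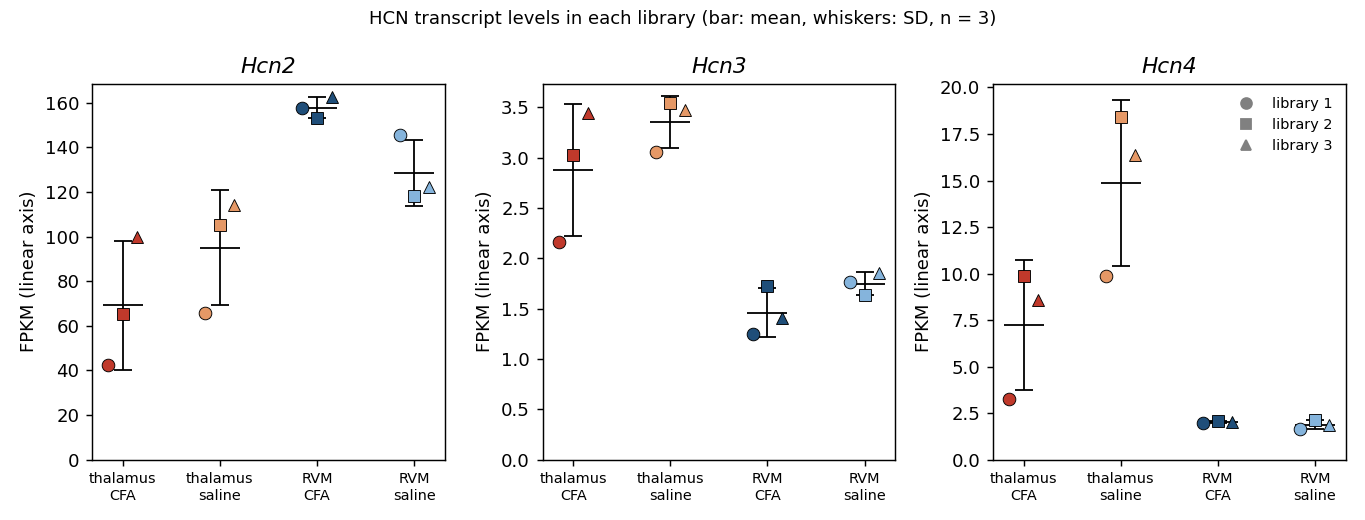
Level of Hcn2, Hcn3 and Hcn4 (FPKM, linear axes starting at 0) in thalamus CFA, thalamus saline, RVM CFA and RVM saline, with 1 point per library, the mean as a bar and the SD as whiskers (n = 3 per group). Hcn2 lies highest in RVM, at 118 to 162 FPKM, and Hcn4 highest in thalamus saline, at 9.87 to 18.4 FPKM.

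The first comparison asked how the regions differ, within rats of the same treatment. Hcn3 and Hcn4 were higher in thalamus than in RVM under both treatments, and Hcn2 was lower in thalamus of CFA rats. A gene passed when its limma p, adjusted by Benjamini-Hochberg over all genes tested, was below 0.05. In CFA rats all 3 members passed, where 33.0% of 14787 genes did, 14.9% higher and 18.1% lower in thalamus. The regions did not overlap for 51.7% of genes, 24.4% higher and 27.3% lower, as for all 3 members. Differences are on the log2(FPKM + 1) scale here and below, so those of low genes come out too small. Hcn2 averaged 69.1 ± 28.8 FPKM in thalamus and 158 ± 4.68 FPKM in RVM (mean ± SD, n = 3 each), a log2 difference of -1.26 ± 0.28 (SE; limma adjusted p = 0.0171). Hcn4 averaged 7.25 ± 3.49 FPKM in thalamus and 2.03 ± 0.0359 FPKM in RVM, a 3.58-fold ratio of means and a log2 difference of 1.34 ± 0.34 (limma adjusted p = 0.0269). Hcn3 averaged 2.88 ± 0.656 FPKM in thalamus and 1.46 ± 0.243 FPKM in RVM, a log2 difference of 0.65 ± 0.18 (limma adjusted p = 0.0330). These calls were fragile. Without RVM CFA 1, 2 or 3, or without thalamus CFA 2, none of them passed, with log2 differences between -1.28 and -1.24 for Hcn2, 0.59 and 0.72 for Hcn3, and 1.09 and 1.35 for Hcn4. Without thalamus CFA 3 the Hcn3 and Hcn4 calls were lost as well, at 0.54 and 1.17, and without thalamus CFA 1 all 3 held, at -0.96 for Hcn2, 0.79 for Hcn3 and 1.76 for Hcn4.

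In saline rats Hcn4 averaged 14.9 ± 4.45 FPKM in thalamus and 1.88 ± 0.231 FPKM in RVM, a 7.90-fold ratio of means. On the log2 scale the difference was 2.42 ± 0.22 (limma adjusted p = 0.000433). Hcn3 averaged 3.35 ± 0.259 FPKM in thalamus and 1.75 ± 0.111 FPKM in RVM, a log2 difference of 0.66 ± 0.11 (limma adjusted p = 0.00394). Hcn2 averaged 94.99 ± 25.7 FPKM in thalamus and 129 ± 14.9 FPKM in RVM, and its log2 difference of -0.47 ± 0.21 did not pass (limma adjusted p = 0.117, 95% confidence interval -0.97 to 0.04). Of all 14396 genes tested, 45.3% passed, 22.6% higher and 22.7% lower in thalamus, and 2 of 3 members are read against that. The regions did not overlap for 58.8% of genes, 28.9% higher and 29.9% lower, as for all 3 members. Both calls held in each of the 6 fits without 1 library.

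The scaling of the libraries bears on the size of these differences. When all libraries were given an equal FPKM sum, the median difference of all genes was 0.29 in CFA and 0.14 in saline, whereas it was -0.0024 in CFA and -0.020 in saline as deposited. With that sum 5083 genes were higher and 1025 lower in thalamus of CFA rats, against 2206 and 2674 as deposited. In saline rats 4559 were higher and 2013 lower, against 3250 and 3273. With limma-voom on recovered reads the split in CFA rats was 3736 higher and 1443 lower. Under these alternatives and the other scalings Hcn2 stayed negative and Hcn3 and Hcn4 positive in both treatments, with Hcn2 at -0.92 in CFA and -0.28 in saline after that rescaling. Beside these differences, 8 thalamic neuron markers had 5 higher and 0 lower in thalamus of CFA rats and 7 higher and 0 lower in saline rats. Of 9 neuron markers, 2 were higher and 5 lower in CFA rats, and 4 were higher and 4 lower in saline rats. Their part in the regional HCN differences was not tested.

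**Figure D2:**
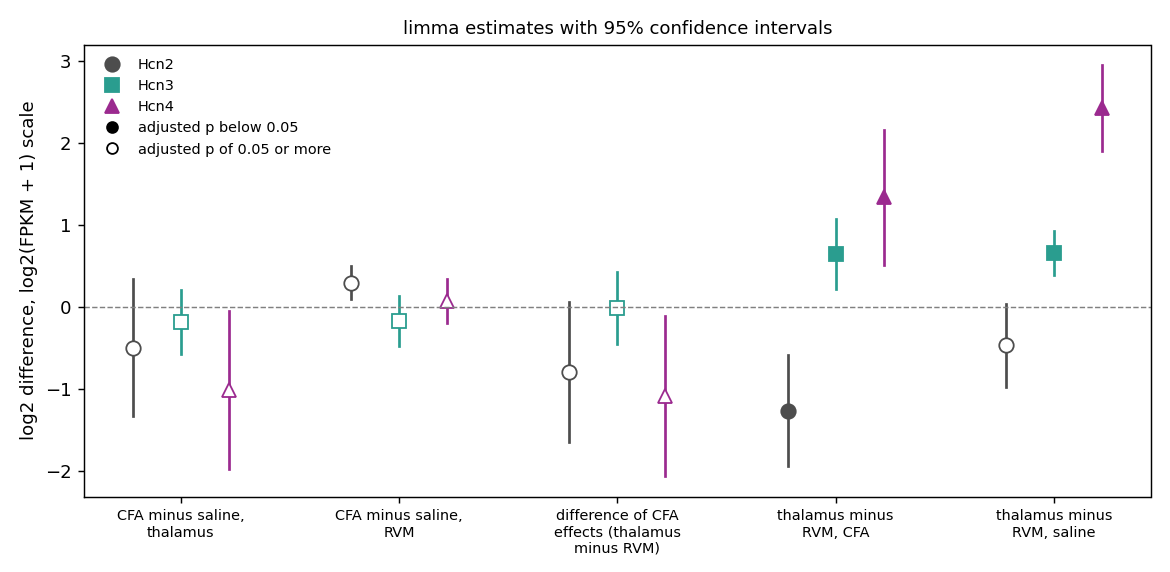
Differences of Hcn2, Hcn3 and Hcn4 on the log2(FPKM + 1) scale by limma, with 95% confidence intervals, for CFA against saline in each region, for the difference of those effects, and for thalamus against RVM in each treatment. Filled symbols passed an adjusted p of 0.05 over all genes tested, which were Hcn2, Hcn3 and Hcn4 in CFA rats and Hcn3 and Hcn4 in saline rats between regions, and none of the CFA effects.

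Between CFA and saline in the thalamus, none of the 3 members passed, where 4.11% of 14722 genes did, 3.84% higher and 0.272% lower. Hcn4 had the largest difference of the 3, a mean of 7.25 FPKM in CFA and 14.9 FPKM in saline. Its log2 difference was -1.01 ± 0.40 (limma adjusted p = 0.222, 95% confidence interval -1.97 to -0.05). Its groups did not overlap, with CFA below saline, as for 16.8% of genes tested (29.0% in either direction), and the gap was the step between 9.86 FPKM in thalamus CFA 2 and 9.87 FPKM in thalamus saline 1. Hcn2 had a log2 difference of -0.50 ± 0.35 (limma adjusted p = 0.414, 95% confidence interval -1.33 to 0.34), and Hcn3 one of -0.18 ± 0.16 (limma adjusted p = 0.526, 95% confidence interval -0.57 to 0.21). Both groups overlapped for these genes, and neither interval excludes a lower or a higher level in CFA. When all libraries were given an equal FPKM sum, the difference was -0.33 for Hcn2, -0.055 for Hcn3 and -0.86 for Hcn4, and none passed. The median difference of all genes was then 0.069, against -0.076 as deposited.

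A few libraries set the size of these values. Without thalamus CFA 1, the library with the lowest thalamic markers and the highest choroid plexus markers, the difference was -0.59 for Hcn4, -0.19 for Hcn2 and -0.04 for Hcn3. Cortex markers summed to 624, 113 and 80.1 FPKM in thalamus CFA 1, 2 and 3 and to 338, 58.2 and 107 FPKM in thalamus saline 1, 2 and 3, so library 1 was also the highest of each group in those. Without thalamus CFA 3 the difference of Hcn2 was -0.80 and that of Hcn3 -0.29. Without thalamus CFA 1 and saline 1 together, which had the lowest thalamic markers in each group, Hcn4 passed with a log2 difference of -0.84 (limma adjusted p = 0.0356). In that fit 728 of 14552 genes passed, 242 of them lower in CFA, against 605 and 40 without that drop. Hcn4 also passed with the replicate number as a block, where 1338 genes passed, 583 of them lower. Over the 19 alternative fits the adjusted p of Hcn4 by limma ranged between 0.0249 and 0.622, and 2 of them passed.

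Levels of neighbouring cell types moved beside these differences. All 8 thalamic neuron markers and all 9 neuron markers had negative differences in CFA thalami, with medians of -0.97 and -0.43 against -0.076 over all genes tested, and 0 passed in either list. Microglia and macrophage markers rose in 8 of 8 cases (median 2.86) and reactive astrocyte markers in 5 of 5 (median 2.54). Choroid plexus markers had a median of 3.02, with 0 of 5 tested past the threshold. Set against the mean log2 level of the 8 thalamic markers of its own library, Hcn4 averaged -2.17 ± 0.16 in CFA and -2.07 ± 0.22 in saline (SD, n = 3 each), a difference of -0.11 (exact two-sided permutation p = 0.50, where 0.1 is the smallest possible). Set against the 9 neuron markers, it averaged -3.69 ± 0.54 in CFA and -3.12 ± 0.26 in saline, a difference of -0.57 (exact permutation p = 0.20). Hcn3 relative to the neuron markers averaged -4.68 ± 0.0455 in CFA and -4.94 ± 0.0968 in saline, a difference of 0.26 without overlap (exact permutation p = 0.10). The share of all genes without overlap was not computed on this scale, and as deposited it was 29.0% in thalamus. Hcn2 relative to the neuron markers differed by -0.06 with overlap (exact permutation p = 0.80), against -0.50 as measured. Relative to the thalamic markers Hcn2 differed by 0.41 and Hcn3 by 0.72, both with overlap (exact permutation p = 0.30 each).

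**Figure D3:**
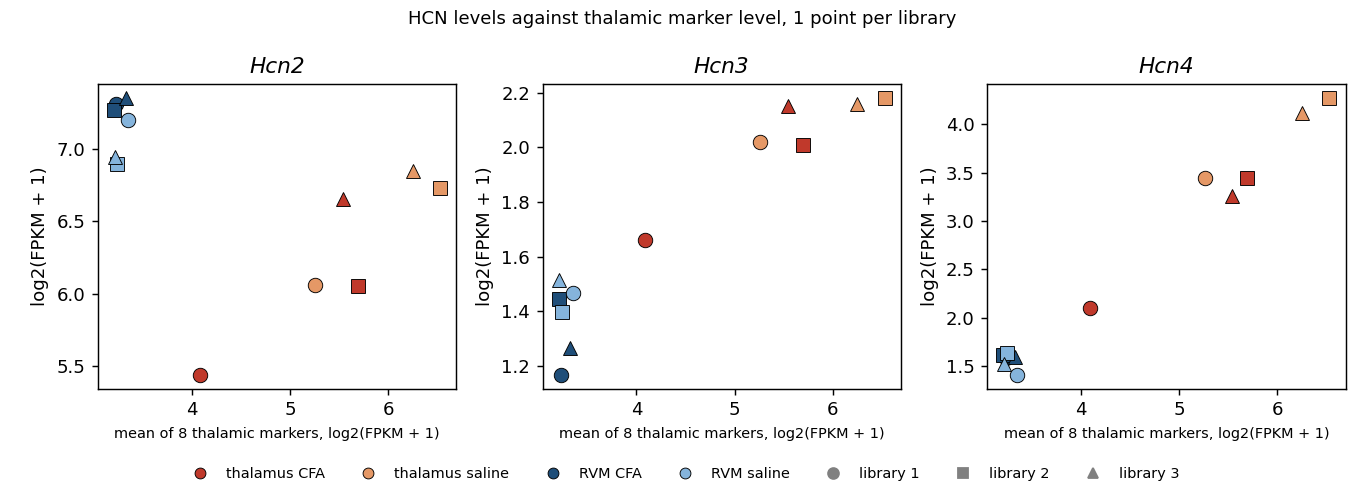
Level of Hcn2, Hcn3 and Hcn4 (y axes, log2(FPKM + 1)) against the mean level of 8 thalamic neuron markers (x axis, log2(FPKM + 1)), with 1 point per library, coloured by group and shaped by library number. Thalamus CFA 1 had the lowest markers of the thalamus libraries, at 4.09, and the lowest Hcn2, Hcn3 and Hcn4, while the 6 RVM libraries cluster at 3.21 to 3.35.

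In RVM, none of the 3 members passed between CFA and saline, and 0 of all 14289 genes tested did by limma (0%), although 2030 had an unadjusted p under 0.05. With limma-voom the count was 0 as well, and 1860 had an unadjusted p under 0.05. Hcn2 averaged 158 ± 4.68 FPKM in CFA and 129 ± 14.9 FPKM in saline. Its log2 difference was 0.30 ± 0.08 (limma adjusted p = 0.254, 95% confidence interval 0.10 to 0.50, not adjusted for the number of genes). All 3 CFA libraries were above all 3 saline libraries, as for 7.27% of genes tested (19.8% did not overlap in either direction). Hcn3 had a log2 difference of -0.17 ± 0.13 (limma adjusted p = 0.614, 95% confidence interval -0.47 to 0.14) and Hcn4 one of 0.07 ± 0.11 (limma adjusted p = 0.820, 95% confidence interval -0.20 to 0.34), with overlapping groups. Beside them, neuron markers had a median of -0.015 with 0 of 9 past the threshold, microglia and macrophage markers a median of 2.17 with 0 of 8, reactive astrocyte markers a median of 1.11 with 0 of 4, and hindbrain markers a median of -0.31 with 0 of 7. The RVM CFA libraries were uneven in these lists. Microglia and macrophage markers summed to 2267, 366 and 1502 FPKM in RVM CFA 1, 2 and 3, against 137 to 197 FPKM in RVM saline. Reactive astrocyte markers summed to 1735, 662 and 1376 FPKM in RVM CFA 1, 2 and 3. In RVM saline they summed to 715 to 821 FPKM, so the sum of RVM CFA 2 lay below all saline libraries. Gfap alone held 602 FPKM of that sum in RVM CFA 2. The mean log2 level of the same markers was 4.27 in RVM CFA 2, above the 3.76, 4.03 and 3.95 of RVM saline 1, 2 and 3. Without RVM CFA 2, 484 genes passed, and Hcn2 (0.32), Hcn3 (-0.24) and Hcn4 (0.06) did not. The part of these cell types in the Hcn2 difference was not tested beyond its level relative to neuron markers, which averaged 0.03 ± 0.11 in CFA and -0.30 ± 0.24 in saline, with overlapping groups (exact permutation p = 0.20). On that scale Hcn4 differed by 0.11 without overlap (exact permutation p = 0.10, the smallest possible) and Hcn3 by -0.13 with overlap (exact permutation p = 0.30). The share of all genes without overlap was not computed on that scale, and as deposited it was 19.8% in RVM.

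Whether the CFA effect itself differed between regions was tested over all 12 libraries. The effect in thalamus minus that in RVM was -1.08 ± 0.44 for Hcn4 (limma adjusted p = 0.409, 95% confidence interval -2.06 to -0.11). It was -0.79 ± 0.39 for Hcn2 (limma adjusted p = 0.456, 95% confidence interval -1.65 to 0.06). For Hcn3 it was -0.01 ± 0.20 (limma adjusted p = 0.981, 95% confidence interval -0.45 to 0.42). The intervals are not adjusted for the number of genes tested. None of the 3 members passed, and 0 of 13738 genes did by limma (0%), with 1560 at an unadjusted p under 0.05. By limma-voom these counts were 0 and 1451. Without thalamus saline 1 and CFA 1, where 146 genes passed, Hcn4 passed at -0.92 (limma adjusted p = 0.0352).

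The order of the groups followed from these values. Hcn2 ran from RVM CFA over RVM saline and thalamus saline down to thalamus CFA, and no neighbouring pair in that order passed. Hcn4 ran from thalamus saline over thalamus CFA and RVM CFA to RVM saline, and of the neighbours only thalamus CFA and RVM CFA passed. Hcn3 ran from thalamus saline over thalamus CFA and RVM saline to RVM CFA. The pairs of the same region did not pass for Hcn3, and thalamus CFA against RVM saline was not tested.

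The balance between the members was then compared within each library, since FPKM is per gene length. The listed lengths were 2541 bases for Hcn2, 6413 for Hcn3 and 5518 for Hcn4, and the balance rests on them. In recovered reads Hcn2 exceeded Hcn4 by less, as with 2823 against 925 reads in thalamus CFA 2. Hcn2 made up most of the summed FPKM of the 3 genes, and Hcn4 had a larger part of it in thalamus. Hcn4 held 9.06 ± 3.10% in thalamus CFA, 13.1 ± 1.20% in thalamus saline, 1.26 ± 0.0503% in RVM CFA and 1.45 ± 0.315% in RVM saline (SD, n = 3 each). Hcn3 held 3.82 ± 0.712% in thalamus CFA, 3.09 ± 0.701% in thalamus saline, 0.907 ± 0.170% in RVM CFA and 1.33 ± 0.146% in RVM saline. The level of Hcn2 was 6.63 to 12.9 times that of Hcn4 in thalamus CFA and 5.73 to 6.97 times in thalamus saline, against 74.2 to 80.2 times in RVM CFA and 55.8 to 87.9 times in RVM saline.

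The log2 ratio of Hcn4 to Hcn2, with 1 FPKM added to each, averaged 2.60 higher in thalamus than in RVM of CFA rats and 2.89 higher in saline rats. That of Hcn3 to Hcn2 was 1.91 higher in CFA rats and 1.13 higher in saline rats, and that of Hcn4 to Hcn3 0.69 and 1.76 higher. With 1 FPKM added, all 6 thalamus libraries exceeded all 6 RVM libraries in each ratio. For Hcn4 to Hcn3 this was narrow, at 0.442 in thalamus CFA 1 and 0.413 in RVM CFA 1. The plain FPKM ratio was 1.52 and 1.60 in those libraries, so the regions overlapped for it without the added 1 FPKM. Permuting the region labels within treatment gave an exact two-sided p of 0.005 for each, the smallest of 400 arrangements, and 0.01 after adjustment over the 6 ratio tests. These 3 results are not independent, since the log2 ratio of Hcn4 to Hcn3 is the first minus the second. How often ratios of other genes separate the regions was not computed. Single genes did not overlap between regions in 51.7% of cases in CFA rats and 58.8% in saline rats.

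CFA and saline did not differ past the threshold in any of the ratios. Averaged over regions, the log2 ratio of Hcn4 to Hcn2 differed by -0.37, CFA minus saline (exact permutation p = 0.06, adjusted p = 0.09). It was -0.07 for Hcn3 to Hcn2 (exact permutation p = 0.715) and -0.30 for Hcn4 to Hcn3 (exact permutation p = 0.29). In RVM the ratio of Hcn3 to Hcn2 was -6.14 to -5.82 in CFA and -5.73 to -5.43 in saline, without overlap, a mean difference of -0.46, whereas in thalamus the mean difference was 0.32 and the groups overlapped. The difference between those effects was not tested, and how often ratios of other genes show no overlap was not computed.

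**Figure D4:**
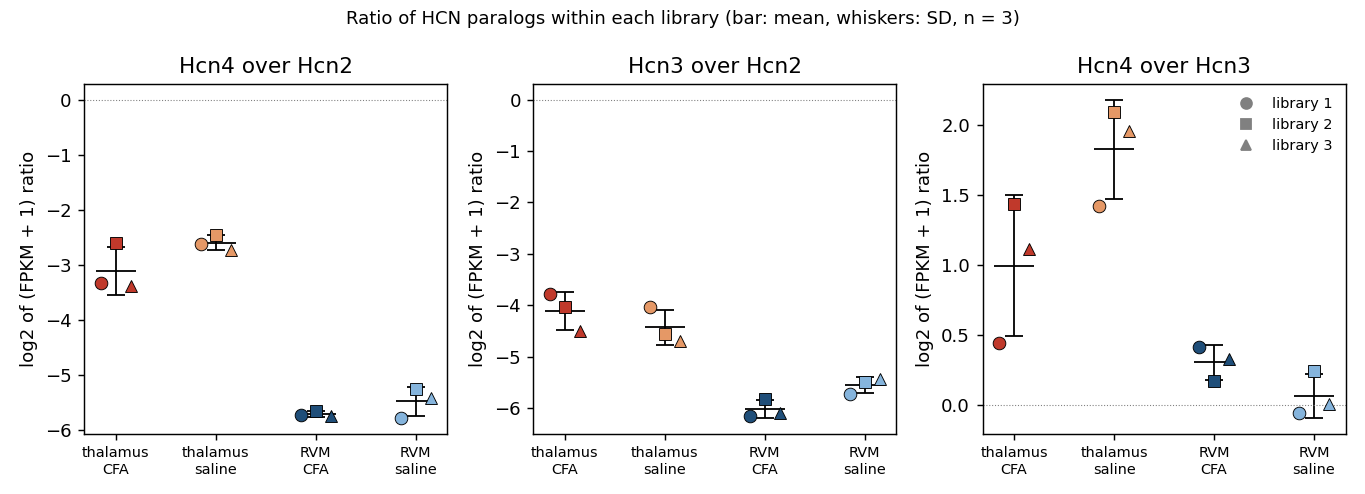
Log2 ratio of (FPKM + 1) of Hcn4 to Hcn2, Hcn3 to Hcn2 and Hcn4 to Hcn3 in each library of thalamus CFA, thalamus saline, RVM CFA and RVM saline, with means and SD (n = 3 per group). In each panel the 6 thalamus libraries lie above the 6 RVM libraries, for Hcn4 to Hcn2 at -3.39 to -2.45 against -5.79 to -5.26.

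Genes that act with HCN channels were read from lists, by the count of members that passed. Of all genes tested between regions, 14.9% were higher and 18.1% lower in thalamus of CFA rats, and 22.6% were higher and 22.7% lower in saline rats, and the counts below stand beside those shares. Of 3 genes of T-type calcium channels, whose low-threshold current triggers the thalamic burst, 2 were higher in thalamus than in RVM under both treatments. Cacna1g had a log2 difference of 1.65 in CFA and 2.17 in saline, and Cacna1i of 1.44 in CFA and 1.30 in saline. Of the adenylyl cyclases, the enzymes that make cyclic AMP, 3 of 9 tested were higher in thalamus in CFA rats and 6 of 8 in saline rats, and 0 were lower in either. Adcy1, a calcium-stimulated cyclase of neurons, had 2.35 in both treatments. In CFA rats Adcy9 had 0.70 and Adcy6 had 0.60, and in saline rats Adcy8 had 1.11, Adcy5 had 0.98 and Adcy9 had 0.61.

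Phosphodiesterases degrade cyclic nucleotides. Of 16 tested, 7 were higher and 2 lower in thalamus in CFA rats (14.9% and 18.1% of all genes), and 8 were higher and 2 lower in saline rats (22.6% and 22.7% of all genes). Pde4a, which is specific for cyclic AMP, had a log2 difference of 1.09 in CFA and 1.53 in saline, and Pde10a had 1.08 in CFA and 1.46 in saline. Pde2a (2.29) and Pde1a (1.25) were named in CFA rats, and Pde7b (1.94) and Pde4d (1.25) in saline rats. Two-pore potassium channels carry leak currents that set the resting potential at which HCN channels open. Of 9 tested, 1 was higher and 1 lower in thalamus in CFA rats (Kcnk2 0.72, Kcnk15 -1.502). That is no more than the shares over all genes. In saline rats 4 were higher and 1 lower, with Kcnk13 at 1.47, Kcnk12 at 1.35, Kcnk4 at 0.96 and Kcnk15 at -1.39.

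Of 14 partners of HCN channels tested, 3 were higher and 4 lower in thalamus in CFA rats, and 4 were higher and 4 lower in saline rats. These counts lie near the shares over all genes, 14.9% higher and 18.1% lower in CFA and 22.6% higher and 22.7% lower in saline. Pex5l, which encodes the auxiliary subunit TRIP8b that controls HCN surface expression and cyclic AMP sensitivity, was lower in thalamus, with a log2 difference of -1.33 in CFA and -0.96 in saline. The ubiquitin ligase gene Nedd4l was higher, with 1.28 in CFA and 1.30 in saline, and the tyrosine kinase gene Src was higher, with 0.91 in CFA and 1.502 in saline. Vapb had -0.76 in CFA, and Mrvi1 had 1.71 in saline. The median difference was 0.18 for partners, 0.41 for cyclases, 0.46 for phosphodiesterases, 1.44 for T-type and -0.03 for two-pore channels in CFA rats, against -0.0024 over all genes. In saline rats the medians were 0.04, 0.53, 0.56, 1.30 and 0.80 in the same order, against -0.020 over all genes. Of the 6 cyclic nucleotide-gated channel genes, the closest relatives outside the family, 5 matched the table and none reached a mean of 1 FPKM in any comparison.

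**Figure D5:**
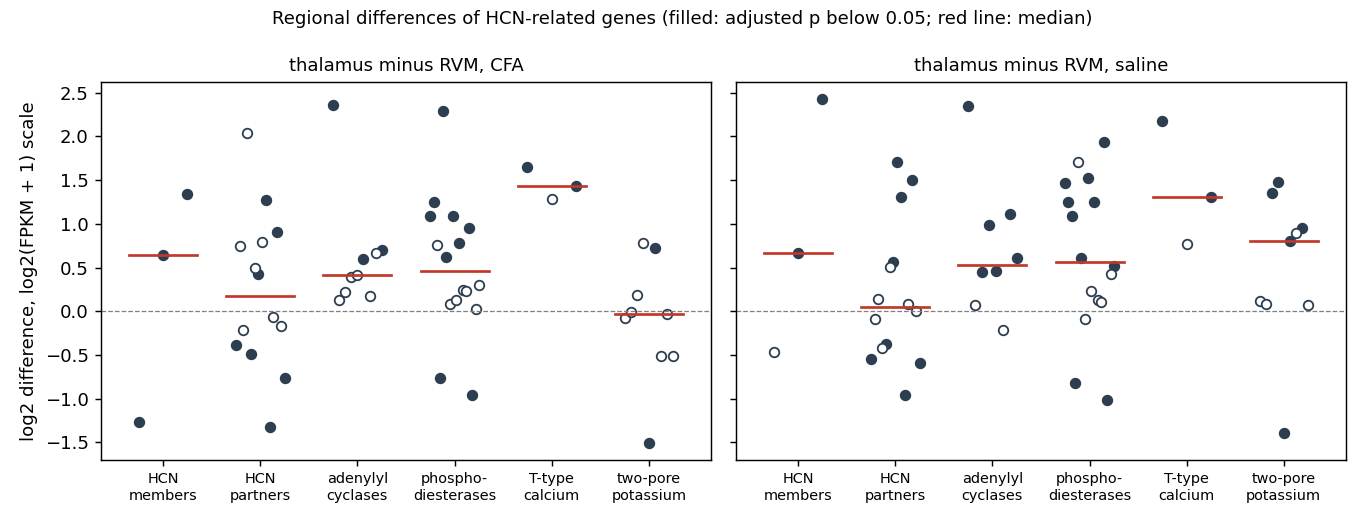
Differences between thalamus and RVM on the log2(FPKM + 1) scale for the 3 HCN members and 5 lists of related genes, in CFA rats (left) and saline rats (right), with 1 point per gene tested, filled where the adjusted p was below 0.05, and the median of each list as a line. T-type channels have medians of 1.44 in CFA and 1.30 in saline, while HCN members spread from -1.26 to 1.34 in CFA and from -0.47 to 2.42 in saline.

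Between CFA and saline, 1 gene on these 5 lists passed. Adcy4, a cyclase not stimulated by calcium, rose in thalamus, with a log2 difference of 1.00 ± 0.17 (limma adjusted p = 0.0259). It was 1 of 9 cyclases tested. The other lists had 0 of 14 partners, 0 of 16 phosphodiesterases, 0 of 3 T-type and 0 of 9 two-pore channels past the threshold. Over the 5 lists, 1 call is no more than the share of all genes in thalamus, where 4.11% passed and 3.84% rose. All 9 two-pore channels had negative differences there, with a median of -0.55 against -0.076 over all genes, and the smallest p-values were those of Kcnk15 (-0.69) and Kcnk4 (-1.12). The 9 neuron markers (median -0.43) and the 8 thalamic neuron markers (median -0.97) were likewise all negative there. The share of all genes with a negative difference was not computed. Cacna1g had a difference of -1.02 and Cacna1h one of 0.53 (limma adjusted p = 0.250 and 0.559). Partners had a median of -0.18, with Ptpra at -0.31 and Flna at 0.86, and phosphodiesterases one of -0.20, with Pde4a at -0.36 and Pde7b at -0.96.

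In RVM, 0 of 50 genes tested on the 5 lists passed between CFA and saline. The smallest p-values in each list were those of Pex5l (log2 difference -0.36) and Ptpra (-0.16) among partners and Adcy5 (-0.22) and Adcy4 (0.58) among cyclases. Pde8a (-0.21) and Pde1c (-0.29) followed among phosphodiesterases, Cacna1g (-0.50) and Cacna1i (-0.19) among T-type channels, and Kcnk15 (-0.58) and Kcnk12 (0.26) among two-pore channels. In the difference of the CFA effects between regions, 0 of 50 passed as well, with the smallest p-values for Src (-0.59) and Flna (0.84), Adcy5 (-0.57) and Adcy4 (0.41), Pde4a (-0.43) and Pde7b (-0.98), Cacna1g (-0.53) and Cacna1h (0.51), and Kcnk12 (-1.16) and Kcnk4 (-0.99).

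Among 12286 other named protein-coding genes, those with the profile nearest to each member over the 12 libraries were found by the root mean square difference of log2(FPKM + 1) after centring. For Hcn4 these were Chrnb2 (0.118), a nicotinic acetylcholine receptor subunit gene, Pdp1 (0.123), a pyruvate dehydrogenase phosphatase gene, Adra2b (0.124), the alpha-2B adrenergic receptor gene, and Gabrb2 (0.139), a GABA-A receptor subunit gene. The median distance to Hcn4 over all those genes was 1.10. Chrnb2 averaged 33.4 FPKM in thalamus CFA, 63.9 FPKM in thalamus saline, 11.1 FPKM in RVM CFA and 12.4 FPKM in RVM saline. Adra2b averaged 2.11 FPKM in thalamus CFA and 5.32 FPKM in thalamus saline, but 0.0179 FPKM in RVM CFA and 0.103 FPKM in RVM saline. At such RVM levels the added 1 FPKM sets most of the value, so the nearness of Adra2b rests on it. For Hcn2 the nearest were Aqp11 (0.152), Ccdc92 (0.156), Kcnj16 (0.166), an inward rectifier potassium channel gene, and Ckmt1 (0.168), a mitochondrial creatine kinase gene, where the median was 0.614. For Hcn3 they were Ambra1 (0.0782), Pkia (0.0843), an inhibitor of the cyclic AMP-dependent protein kinase, Ankrd11 (0.0855) and Gprasp2 (0.0890), where the median was 0.451. All points share the 12 libraries and their depth and makeup.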

How the data were processed

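RNA sequencing of 12 rat brain samples was deposited as a single table of FPKM values, made by the authors per the file headers, with gene length and coordinates as deposited. Libraries were made with a TruSeq kit, per the labels' protocols. The sources used here name no aligner, counter, build or annotation release. FPKM times gene length was a whole multiple of a single step in each library for 100% of values (tolerance 0.01). That step was taken as 1 read, giving 14944794 to 19243108 reads. The deposited FPKM also carried an undescribed scaling between libraries, a factor of 0.933 to 1.17. Counting errors come from these reads alone, and confidence intervals from the spread between libraries.

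A pseudocount of 1 was added to FPKM before taking log2, and limma 3.58.1 (R 4.3.3, empirical Bayes with a trend) was run without a replicate term. Genes entered when they averaged 1 FPKM or more in the compared libraries, or in each region for the interaction. All 3 members passed this filter in every comparison. P-values were adjusted by Benjamini-Hochberg over all genes tested, with calls below 0.05. Ratios used exact permutations stratified by the other factor. The fits were tested on simulated data. All 12 libraries had different read totals, and 0 columns belonged to other samples.

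Named genes were the members in every comparison, up to 4 list genes that passed with the largest differences, otherwise the 2 with the smallest p, and the 4 nearest profiles per member. Oxt was added after its values were seen. The members, the lists (6 of related genes, 9 of markers) and the tests were chosen with earlier results of these data known. Pde11a, Cnga2 and Tac2 of the lists did not match the table. Of the marker lists not described above, habenula and hypothalamus markers summed to 30.5 to 57.8 FPKM in thalamus CFA and 36.4 to 105 FPKM in thalamus saline.

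Alternatives were another pseudocount (0.1), no filter, a filter at 5 FPKM, 3 other scalings, limma-voom on recovered reads, library quality weights, a replicate block, a joint model of the 12 libraries, and drops of libraries. Levels relative to markers were added after the data were examined.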

Additional observations from a re-analysis of the deposited data

How the results depend on the processing

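The regional differences in saline rats kept direction and call under all alternatives run, with log2 differences of 2.26 to 3.02 for Hcn4 and 0.59 to 1.01 for Hcn3. In CFA rats the Hcn3 call was lost without a filter (0.65, adjusted p = 0.0555) and after quantile normalization (0.47), which also ended the Hcn4 call (1.17). Leaving out 1 library there gave -1.56 to -0.96 for Hcn2, 0.54 to 0.79 for Hcn3 and 1.09 to 1.76 for Hcn4. In CFA against saline in thalamus, the sign turned without CFA 1 and 2, which leaves 1 CFA library assumed to vary like saline (Hcn2 0.11, Hcn3 0.032), relative to neuron markers (Hcn3 0.26) and relative to thalamic markers (Hcn2 0.41, Hcn3 0.72). The replicate number as a block gave Hcn4 a call there at -1.01 (adjusted p = 0.0249), as did leaving out saline 1 and CFA 1 (-0.84), which also gave it one in the difference of CFA effects (-0.92). Same-numbered libraries deviated together with correlations of 0.364, 0.0634 and 0.267 in thalamus, and not every pair exceeded 0.1, so the numbers were not taken as pairs. Between regions these correlations were 0.203, 0.0756 and -0.0371 in CFA and 0.106, 0.020 and -0.014 in saline. The labels do not say whether thalamus and RVM samples of a treatment came from the same animals. The main regional tests and the interaction treated them as independent. The near-zero Hcn3 interaction turned positive with the pseudocount of 0.1 (0.021), the same FPKM total (0.10), limma-voom (0.16), quality weights (0.043), without thalamus saline 1 and CFA 1 (0.076), and without thalamus CFA 1 and 2 (0.20). With 1 library left out it was -0.12 to 0.13. Leaving out 1 library, the ratio tests for CFA gave -0.49 to -0.30 for Hcn4 to Hcn2, where the call appeared without thalamus CFA 2 or RVM saline 1, and -0.16 to 0.025 for Hcn3 to Hcn2. The count of genes called in thalamus (605) was 298 with the filter at 5 FPKM, 1338 with the block, 1932 with all libraries, 1010 with weights, 66 without CFA 1 and 2, 127 without saline 2 and CFA 2, 394 without CFA 1, and 321 or 309 without saline 2 or 3. The count in RVM (0) was 484 without CFA 2, 1 without a filter and at most 2 otherwise. Between regions in CFA (4880) it was 2906 to 2937 without 1 RVM library, and for the interaction (0) it was 11 without a filter, 146 without thalamus saline 1 and CFA 1, and 15 and 1 without thalamus saline 1 or CFA 2. The filter at 5 FPKM left no value for Hcn3 in any comparison, or for Hcn4 in RVM, between regions in CFA and in the interaction. Where these causes are not built into the alternative, the cause was not tested. Hcn3 and Hcn4 in RVM rest on the fewest reads, which limits small differences there.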
